A study of Saccharomyces cerevisiae with 180 samples.

Results

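The PAU, DAN and TIR genes of Saccharomyces cerevisiae were followed in a laboratory strain, a vineyard strain and the haploid offspring of their cross. The genes were taken by name: every gene on the array whose symbol is PAU, DAN or TIR followed only by digits. The rule found 29 of the 5605 named genes, made up of 23 PAU genes, 2 DAN genes (DAN1 and DAN4) and 4 TIR genes (TIR1 to TIR4). All 29 had a value in at least 80% of the 86 segregants, so no gene was lost to a filter on missing values in the cross.

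The PAU genes, named seripauperins for their serine-poor products, form a family of short and very similar genes, many of them near chromosome ends. DAN and TIR genes code for larger serine- and alanine-rich mannoproteins of the cell wall. In yeast most of these genes are known to be kept low in air and to be turned on without oxygen, through the sterol-sensing activator Upc2 and repressors such as Mot3 and Rox1, with heme as the oxygen signal that Hap1 reads. Under those conditions the wall exchanges its aerobic mannoproteins, such as Cwp1 and Cwp2, for the DAN and TIR proteins.

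BY4716 is a haploid laboratory strain of the S288c background, and RM11 is a haploid derivative of a wild vineyard isolate, named RM11-1a on the segregants. The 90 cultures comprised 2 independent cultures of BY4716, 2 of RM11 and 86 haploid segregants with 1 culture each. Total RNA of each culture was hybridised against 1 reference pool of BY4716 RNA on 2 arrays with the dyes exchanged, giving 180 arrays. The medium and the oxygen supply are not given in the sources used here, and no genotype of the segregants was used.

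Each value below is a log ratio of a culture to the pool, averaged over the dye orientations that had a value, and read as log2. A value of 0 means the level of the BY4716 pool, and 1 means a doubling. Array by array, values were present for 3769 to 6570 of 7085 probes (median 6288.5). The strain markers fell as the genotypes would have them. LEU2, URA3, HO and the alpha-specific STE3 were far below the pool in both RM11 cultures, and the a-specific STE2 was above it. The direction, culture over pool, was taken from these markers, so they are no separate check of it. Values were missing more often for the 29 genes in the parents than for other genes. They had a value on 80 of 116 possible array readings in BY4716 and 80 of 116 in RM11, against 19717 and 19863 of 22420 over all genes. The TIR genes were thinnest, with 6 of 16 readings in BY4716 and 8 of 16 in RM11.

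By the R64 gene order, the PAU genes lay on all 16 nuclear chromosomes. The number of protein-coding genes between a PAU gene and the nearer chromosome end had a median of 2. Of the 23, 18 were within 10 genes of an end. Among all annotated protein-coding genes, on the array or not and over 17 chromosomes, 371 held such a position. The share among genes on the array was not computed. PAU2, PAU5, PAU7, PAU17 and PAU23 lay farther in. Their coding lengths were close to each other: 13 had 363 bp, 5 had 375 bp, PAU5 had 369 bp, PAU16 had 372 bp, and PAU21 and PAU22 had 495 bp. PAU7 was the shortest, with 168 bp. DAN1 (897 bp) and DAN4 (3486 bp) were next to each other on chromosome X, 11 and 10 genes from its end. TIR2 (756 bp) and TIR4 (1464 bp) were next to each other on chromosome XV, whereas TIR1 (765 bp) was on chromosome V and TIR3 (810 bp) on chromosome IX. DAN4 was the one gene with 2 probes, and its probes correlated over 81 segregants (r = 0.792, rho = 0.713, r = 0.666 without the 2 most extreme segregants).

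Most PAU genes stood lower in RM11 than in BY4716, and PAU7 stood higher. Of the 29 genes, 21 had a value in all 4 parental cultures, and in 15 of these both RM11 cultures lay below both BY4716 cultures. Over all genes with 4 parental values that pattern held in 27%. The opposite pattern held in PAU7 alone, against 39.4% of all genes, and the strains overlapped in the other 5. The counts by family were 12 of 18 PAU genes below, 2 of 2 DAN genes below and 1 of 1 TIR gene below. Because PAU genes are alike in sequence, they do not count as separate observations of the strains.

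Wide separations were seen in PAU18, PAU22, PAU21 and PAU19. PAU18 was at 0.45 and 0.04 in the BY4716 cultures and at -0.67 and -0.96 in the RM11 cultures. PAU22, one of the longest PAU genes, was at 0.04 and 0.03 in BY4716 and at -0.65 and -0.86 in RM11. Its near copy in length, PAU21, was at 0.02 and 0.31 in BY4716 and at -0.53 and -0.69 in RM11. In these 3 genes the RM11 cultures lay together and well under the pool. PAU19 was at 0.17 and 0.33 in BY4716 and at -0.28 and -0.61 in RM11. PAU12 was at 0.06 and -0.14 against -0.44 and -0.93. PAU10 was at -0.09 and 0.05 in BY4716 and at -2.34 and -0.56 in RM11. The lower PAU10 value came from 1 array of 1 culture, so the RM11 cultures of this gene were far apart. PAU22 and PAU12 had values on the Cy5-titled arrays only, as had both RM11 cultures of PAU19. In PAU18, BY4716 culture 1 had a Cy3-titled value only, and BY4716 culture 2 and RM11 culture 2 a Cy5-titled value only. An effect of the dye could not cancel in these cultures.

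Smaller separations were found in PAU2, PAU20, PAU23, PAU8, PAU24 and PAU3. PAU2 was at -0.10 and -0.06 in BY4716 and at -0.48 and -0.41 in RM11. PAU20 was at 0.17 and 0.14 against -0.44 and -0.11, and PAU23 was at 0.22 and 0.08 against -0.07 and -0.41. The strains did not overlap in these genes, but the RM11 cultures of PAU20 and PAU23 differed from each other by about as much as the strains did. PAU8 was at -0.04 and -0.03 in BY4716 and at -0.29 and -0.31 in RM11. PAU24 was at -0.10 and -0.27 against -0.42 and -0.48, and PAU3 was at 0.01 and -0.01 against -0.18 and -0.12. These differences were small, and that of PAU2 rested on 1 array per culture.

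PAU7 was the exception in direction. It was at -0.12 and -0.03 in BY4716 and at 0.25 and 0.52 in RM11, with every RM11 array above every BY4716 array. The strains overlapped in PAU4 (-0.01 and 0.06 in BY4716, -0.23 and 0.04 in RM11) and in PAU5 (0.21 and 0.17, 0.19 and -0.19). They also overlapped in PAU6 (-0.15 and 0.11, -0.08 and -0.14), PAU15 (-0.01 and 0.13, -0.11 and 0.11) and PAU16 (0.02 and 0.10, -0.25 and 0.06). PAU1, PAU11, PAU13, PAU14 and PAU17 lacked a value in the first BY4716 culture. In these 5 the RM11 values ran from -1.02 in PAU13 to 0.09 in PAU17, and the single BY4716 value from -0.14 in PAU14 to 0.28 in PAU1.

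DAN1 and DAN4 both lay lower in RM11, and neither difference was called between the strains with all 4 parental cultures in the test. DAN1, a wall mannoprotein gene known for its anaerobic induction, was at -0.06 and 0.15 in BY4716 and at -0.08 and -0.26 in RM11. DAN4 was at 0.29 and 0.11 in BY4716 and at -0.13 and -0.79 in RM11. The nearest cultures of the strains almost met in DAN1, and the RM11 cultures of DAN4 were as far apart as the strain means. The DAN4 difference was -0.66 (SE 0.234, limma adjusted p = 0.117 over genes with a value in every parental culture). RM11 culture 2 had a Cy5-titled value only for DAN4, and without that culture the DAN4 difference was -0.33.

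TIR1 and TIR2 were clearly under the pool in RM11. TIR1, whose product is known from cold shock and anaerobic growth, was at -0.09 and -0.09 in BY4716 and at -0.68 and -0.89 in RM11, the latter from Cy5-titled arrays only. TIR2 was at 0.09 in the single BY4716 culture that had a value and at -1.47 and -1.79 in RM11, the lowest RM11 values of the 29 genes apart from the single PAU10 array. TIR3 had 1 value per strain, 0.10 in BY4716 and 0.43 in RM11, and TIR4 had 1 RM11 value, -1.07, and no BY4716 value. For TIR4 no difference between the strains could be tested.

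**Figure D1:**
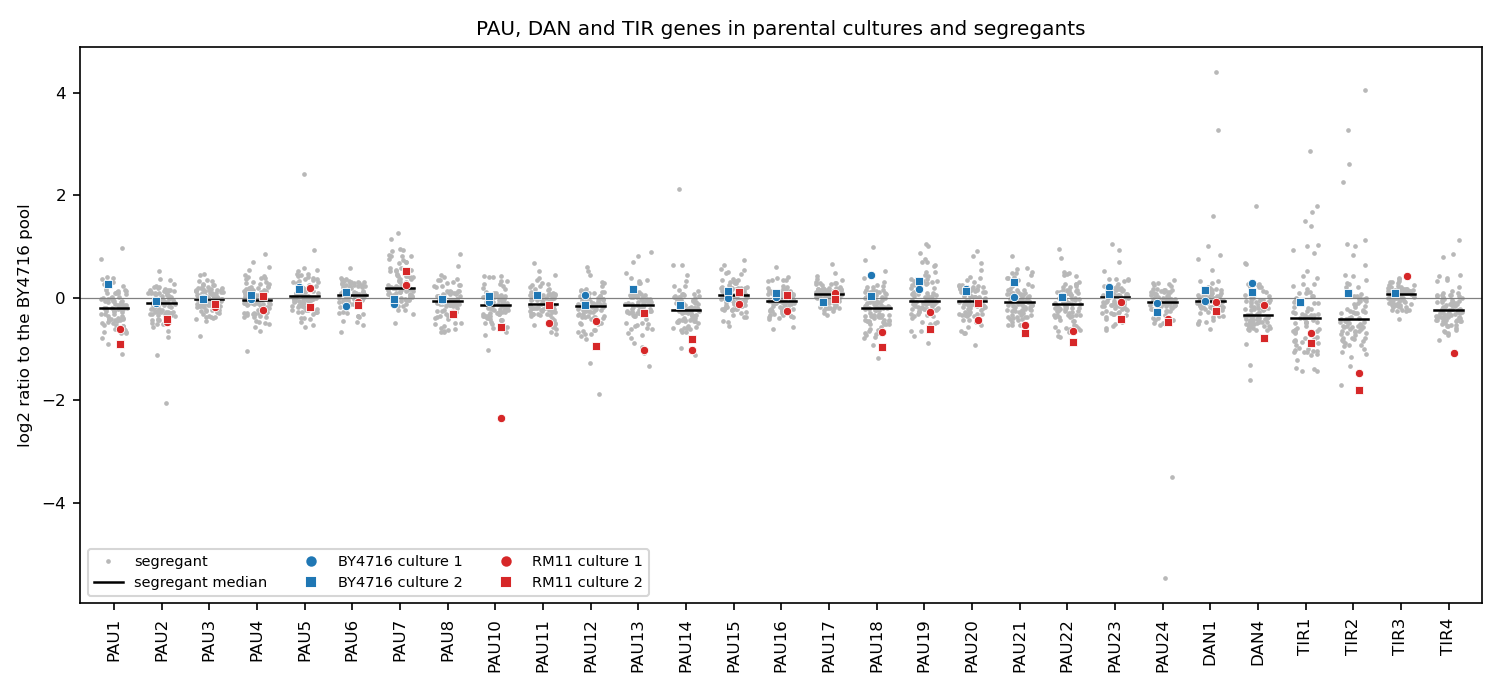
Log2 ratio to the BY4716 pool (y axis) of each of the 29 genes (x axis) in 86 segregants (grey points), with the segregant median (black line) and the parental cultures (blue, BY4716; red, RM11; circle, culture 1; square, culture 2). RM11 lies under BY4716 in 15 of 21 genes with all 4 cultures, PAU7 runs the other way, and DAN1, TIR1 and TIR2 have segregants far above the rest.

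The test between the strains was made with limma on culture means, 2 cultures per strain. Over the 3256 genes whose 8 parental arrays all gave a value, 8.54% were called lower and 18.2% higher in RM11, with 0.05 as the limit on the Benjamini-Hochberg adjusted p. The split of 591 higher and 278 lower went to 435 and 315 with quantile normalization. Only 5 of the 29 genes had those 8 values: PAU21 was called lower, PAU7 higher, and PAU3, PAU8 and DAN1 were not called. PAU21 differed by -0.78 (SE 0.127, limma adjusted p = 0.0119) and PAU7 by 0.46 (SE 0.118, limma adjusted p = 0.0417). PAU8 differed by -0.27 (limma adjusted p = 0.0526), DAN1 by -0.21 (limma adjusted p = 0.224) and PAU3 by -0.15 (limma adjusted p = 0.224). PAU8 was called with each array centred on its median (-0.32, limma adjusted p = 0.0371). The call of PAU7 was lost with that centring (0.42, limma adjusted p = 0.0521), with quantile normalization (0.38, limma adjusted p = 0.0593), on either dye orientation alone and without either BY4716 culture. PAU21 lost its call on the Cy3-titled arrays alone (-1.09, limma adjusted p = 0.0557) and without BY4716 culture 2 (-0.63, limma adjusted p = 0.120).

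With a value required in every parental culture but not on every array, 5169 genes and 21 of the 29 were tested, and 7.62% of all genes were called lower and 10.7% higher. That excess of higher calls, 552 against 394, shrank to 461 against 444 with median centring and turned to 311 against 338 with quantile normalization. Over all 5169 genes, 1862 had an unadjusted p under 0.05 (limma). Among the 21, 6 were called lower and 0 higher (limma, with 13 of the 21 at an unadjusted p under 0.05). The 6 were PAU18 (-1.06, SE 0.179), PAU22 (-0.79, SE 0.106), PAU21 (-0.78, SE 0.133), TIR1 (-0.70, SE 0.105), PAU19 (-0.69, SE 0.141) and PAU2 (-0.36, SE 0.0843), with limma adjusted p from 0.0112 in PAU22 to 0.0465 in PAU2. The median difference was -0.36 over the 21 genes and 0.06 over all genes tested. With quantile normalization under the same rule 4 of the 6 stayed called, and PAU2 and PAU21 did not.

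With 1 value per strain enough, 5542 genes and 28 of the 29 were tested, and 7.33% of all genes were called lower and 9.26% higher. Of the 5542 genes, 1941 had an unadjusted p under 0.05 (limma). PAU1 (-1.03, SE 0.172), PAU14 (-0.77, SE 0.148) and TIR2 (-1.72, SE 0.180) then joined the genes called lower, PAU2 did not, and the count came to 8 of 28 (limma, 0 higher, 15 at an unadjusted p under 0.05). TIR3, with 1 culture per strain, differed by 0.33 (SE 0.150, limma adjusted p = 0.254). TIR2 had the largest difference of these 8 genes, with a limma adjusted p of 0.0139 and a single BY4716 culture behind it. The BY4716 cultures themselves did not stand off the pool of their own strain in any of the 5 genes with all 8 values (limma, 0 called, 0 at an unadjusted p under 0.05). With so few cultures only differences well above the culture error could pass, and whether the 2 cultures of a strain represent its usual spread was not tested.

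Over the segregants the 29 genes differed in how far they spread, also within a family. TIR2 had the widest spread (SD 0.896, above 97.3% of the genes measured in at least 80% of segregants), followed by TIR1 (SD 0.770), PAU24 (SD 0.761) and DAN1 (SD 0.671). The median SD was 0.319 over the PAU genes and 0.252 over all genes. TIR3 had the narrowest spread of the 29 (SD 0.164, above 11.4% of genes), with PAU17 next (SD 0.176).

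TIR2 ran from -1.69 over a median of -0.40 to 4.06, with 7 segregants above 1 and 6 below -1. TIR1 ran from -1.42 over a median of -0.38 to 2.87, with 7 segregants above 1 and 13 below -1. DAN1 ran from -0.61 over a median of -0.05 to 4.40, and 4 segregants were above 1 and none below -1. Thus TIR1 spread in both directions, while the width of DAN1 came from a handful of high segregants. DAN4 ran from -1.60 over a median of -0.33 to 1.79. TIR4 ran from -0.83 over -0.23 to 1.12, and TIR3 from -0.41 over 0.07 to 0.39. In TIR2, 17 segregants exceeded every parental culture with a value and 0 lay below them all, and in TIR1 27 lay above and 16 below.

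Among the PAU genes the widest were PAU24, PAU14, PAU19 and PAU5. PAU24 ran from -5.46 over a median of -0.08 to 0.35, PAU14 from -1.12 over -0.23 to 2.12, PAU19 from -0.87 over -0.05 to 1.05, and PAU5 from -0.57 over 0.03 to 2.43. Several of these ends rested on a single array. The PAU24 value of -5.46 in segregant 9-1-d came from 1 orientation, and the next lowest, -3.49 in 7-7-c, averaged -0.37 and -6.61. The highs of PAU5 in 1-3-d and of PAU14 in 3-1-d likewise came from 1 orientation each. Kept to segregants with both orientations within 1 log2 unit, an alternative added after the values had been seen, the SD was 0.152 in PAU24, 0.272 in PAU14, 0.274 in PAU5 and 0.363 in PAU19. The same restriction left TIR1 at 0.773 and TIR2 at 0.912. DAN1 went to 0.448 with 80 segregants kept. Those left out included its highest, with orientations of 5.04 and 3.76, and its next after 11-2-d, 18-3-d, with 1.05 and 2.15.

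The segregant variance was set against the variance between cultures of 1 parent in a one-sided F test, with 58.6% of 3255 genes called at an adjusted p under 0.05. DAN1 (adjusted p = 0.00521), PAU8 (adjusted p = 0.0151), PAU7 (adjusted p = 0.0297) and PAU3 (adjusted p = 0.0333) passed, and PAU21 did not (adjusted p = 0.0540), all in this F test over limma error variances. With a value in every parental culture enough, 27.6% of 5159 genes were called and 6 of the 21: PAU24, TIR1, DAN1, PAU2, PAU8 and PAU22. Against the disagreement of the dye orientations within a segregant, 93.8% of 5567 genes were called and 27 of the 29; the exceptions were PAU2 and PAU24, the genes with the poorest agreement. No gene of the 3 families split its segregants into 2 clusters by the rule used here, which 0.988% of 5567 genes met, so correlations were taken over all segregants together.

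The orientations gave the repeatability of each gene. The correlation over segregants between the Cy3- and Cy5-titled arrays of a gene was highest in TIR2 (0.959), TIR1 (0.917), PAU18 (0.877), PAU22 (0.875) and DAN1 (0.866). It was lowest in PAU24 (0.0921), PAU2 (0.0955), TIR3 (0.284) and PAU12 (0.286). The median was 0.625 over the PAU genes, and 0.640 over all genes.

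Most PAU genes rose and fell together from segregant to segregant. Over the 253 pairs of PAU genes the median Pearson r was 0.528, and 140 pairs had r of at least 0.5. That height was reached by 2.49% of all 15492961 pairs of genes, whose median r was -0.000388. At a Benjamini-Hochberg adjusted permutation p under 0.05 over all 406 pairs of the 29 genes, 194 of the 253 were called positive and 10 negative. The share of all pairs of genes that this permutation test would call was not computed, here or for the counts below. An absolute r of at least 0.265 was found in 20.1% of the pairs of the 29 genes with all other genes. Because all values of a segregant share 2 arrays and 1 reference, the pairs are not independent of each other.

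The closest pair was PAU1 with PAU18, r = 0.961 (rho = 0.947, 0.950 without the 2 most extreme segregants, adjusted permutation p = 2.64e-05, n = 86). The 2 most extreme segregants, here and in the other pairs of genes, were those farthest from the median of 1 gene of the pair. Extremes of the other gene could stay in. PAU21 with PAU22 followed (r = 0.915, rho = 0.922), and PAU4 with PAU20 came next (r = 0.905, rho = 0.881). PAU15 with PAU21 was nearly as close (r = 0.888). These pairs lie on different chromosomes: PAU1 is on X and PAU18 on XII, PAU21 on XV and PAU22 on XVI, PAU4 on XII and PAU20 on XV. Of the 23 genes PAU22 had the highest median r with the other PAU genes (0.729), followed by PAU15 (0.714), PAU1 (0.708) and PAU18 (0.708).

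**Figure D2:**
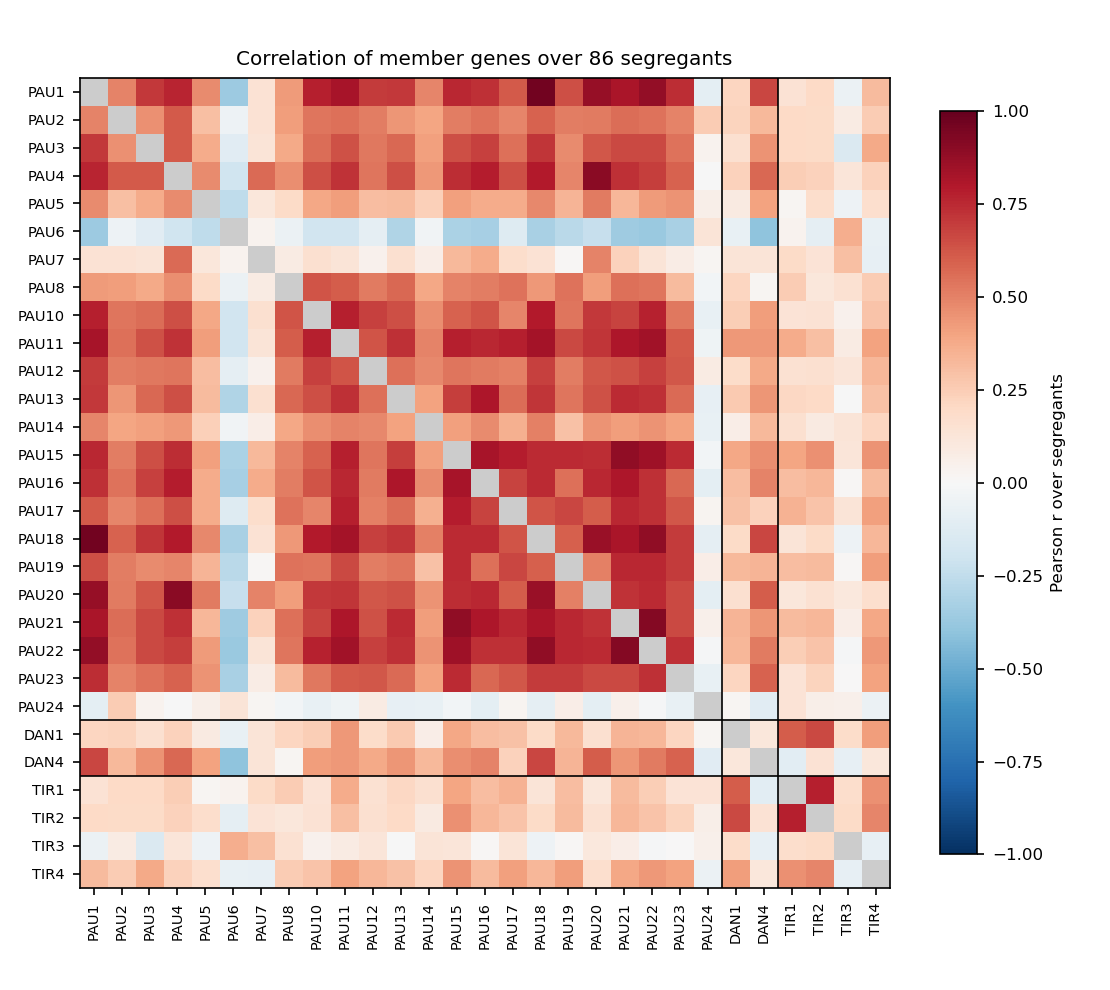
Pearson r over the segregants for each pair of the 29 genes, from blue (-1) over white (0) to red (1), with grey on the diagonal and lines between the families. Most of the PAU block is red with a median of 0.528, PAU6 is blue against it, PAU24 is near 0, and DAN4 goes with the PAU genes while DAN1 goes with TIR1, TIR2 and TIR4.

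The shared movement was also present when the pair was read on different arrays. With 1 PAU gene from the Cy3-titled and the other from the Cy5-titled array of a segregant, the median r was 0.440. A PAU gene was often matched by another PAU gene as well as by itself: for 15 of the 23, some other PAU gene correlated across the orientations at least as highly as the gene did with its own second array. PAU1 correlated at 0.841 with itself and at 0.850 with PAU18, and PAU15 at 0.640 with itself and at 0.739 with PAU22. PAU12 correlated at 0.286 with itself, and 18 other PAU genes reached that value. Neither DAN gene and none of the 4 TIR genes was matched in this way by another of the 29. Over all genes, 2377 of 5567 had some other gene that reached the gene's own value, out of all others on the array, whereas each PAU gene had 22 others to be matched with.

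**Figure D3:**
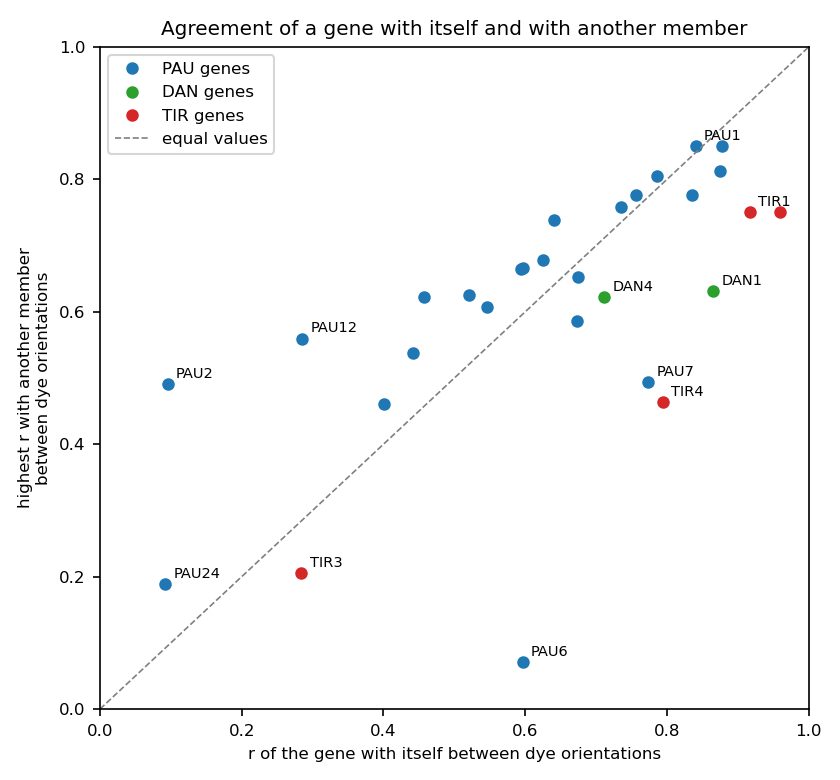
For each gene, the correlation over segregants of its Cy3- with its Cy5-titled values (x axis) against the highest such correlation with another of the 29 genes (y axis). Blue PAU points lie on or above the dashed line of equal values for most genes, and DAN (green) and TIR (red) points lie below it.

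Whether the similar PAU sequences share hybridisation signal, or the genes share regulation, cannot be told apart in these data, and the probe sequences were not used here. Coding length, the one sequence feature at hand, does not measure how alike the probes are. The median r was 0.532 over 89 pairs of equal length and 0.526 over 164 pairs of unequal length. The median was 0.501 over the 78 pairs of 363 bp genes and 0.655 over the 10 pairs of 375 bp genes. In the 1 pair of 495 bp genes, PAU21 and PAU22, r was 0.915. Neighbouring protein-coding genes of other families were less alike. Over 41 pairs of one of the 29 genes with the next protein-coding gene outside the 3 families, the median r was 0.200 and 2 pairs reached 0.5, beside a median of 0.132 and 596 of 5153 pairs for all adjacent genes. The 2 were TIR2 with AUS1 (0.535), a sterol importer gene, and PAU21 with ERR1 (0.508), a gene related to enolase.

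PAU6, PAU7 and PAU24 did not join the other PAU genes. PAU6 was called in 10 PAU pairs, all negative, from -0.255 with PAU5 to -0.367 with PAU22 (rho = -0.269, -0.292 without the 2 most extreme segregants, adjusted permutation p = 0.00150, n = 81). Its values correlated across orientations at 0.597, but 43 segregants had both. Its closest partner was TIR3 (r = 0.363, 0.240 without the 2 most extreme segregants). PAU7, the shortest and the one higher in RM11, was called with 5 PAU genes and had a median r of 0.137 with the family. Its closest were PAU4 (r = 0.563) and PAU20 (r = 0.497). PAU24 was called with none of the 28 other genes, at a repeatability of 0.0921. The 190 pairs among the 20 other PAU genes, a group chosen from these values, ran from 0.192 upward with a median of 0.610.

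DAN1 and DAN4, although adjacent, did not move together detectably (r = 0.110, rho = -0.0412, adjusted permutation p = 0.295, n = 86). DAN4 was called positive with 19 of 23 PAU genes and negative with PAU6 (r = -0.402), with a median of 0.433 over the 23. Its closest were PAU1 (r = 0.671, rho = 0.557, 0.559 without the 2 most extreme segregants), PAU18 (r = 0.669) and PAU20 (r = 0.606). It was called with 0 of 4 TIR genes, with a median r of 0.0159 and the lowest r with TIR1 (-0.104). DAN1 was called with 9 of 23 PAU genes, with a median of 0.217, and with 3 of 4 TIR genes. Between the DAN and PAU families as a whole 28 of 46 pairs were called positive, and the median r was 0.315.

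DAN1 correlated with TIR2 (r = 0.662, adjusted permutation p = 4.89e-05), TIR1 (r = 0.608, adjusted permutation p = 2.64e-05) and TIR4 (r = 0.420, adjusted permutation p = 0.00207). The first 2 leaned on segregants 5-3-d and 11-2-d: without the 2 most extreme segregants they fell to 0.392 and 0.407, and the rank correlations were 0.312 and 0.250. The rank correlations still passed the adjusted permutation threshold (p = 0.00672 and p = 0.0298). The relation with TIR4 hardly moved (0.407, rho = 0.319).

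TIR1 and TIR2 were the closest TIR pair (r = 0.774, rho = 0.710, 0.666 without the 2 most extreme segregants, n = 86). TIR2 correlated with its neighbour TIR4 (r = 0.489) and so did TIR1 (r = 0.460), which lies on another chromosome. TIR3 was not called with any TIR or DAN gene, and its TIR values ran from -0.0826 with TIR4 to 0.192 with TIR2, at a repeatability of 0.284 and with a value on 70.9% of segregant arrays.

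The TIR genes were tied more loosely to the PAU genes. The median r over 92 pairs was 0.189, none reached 0.5, and 36 were called positive and 0 negative. PAU15 with TIR2 (r = 0.455), PAU15 with TIR4 (r = 0.453) and PAU22 with TIR4 (r = 0.434) were highest, and PAU3 with TIR3 was lowest (r = -0.147). TIR4 was called with 17 of the 23 PAU genes, TIR1 with 9, TIR2 with 8 and TIR3 with 2. The first number of the segregant names was the only part of the names used as a block. With that block, the medians were 0.552 within the PAU family, 0.363 between PAU and DAN genes and 0.126 between PAU and TIR genes.

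**Figure D4:**
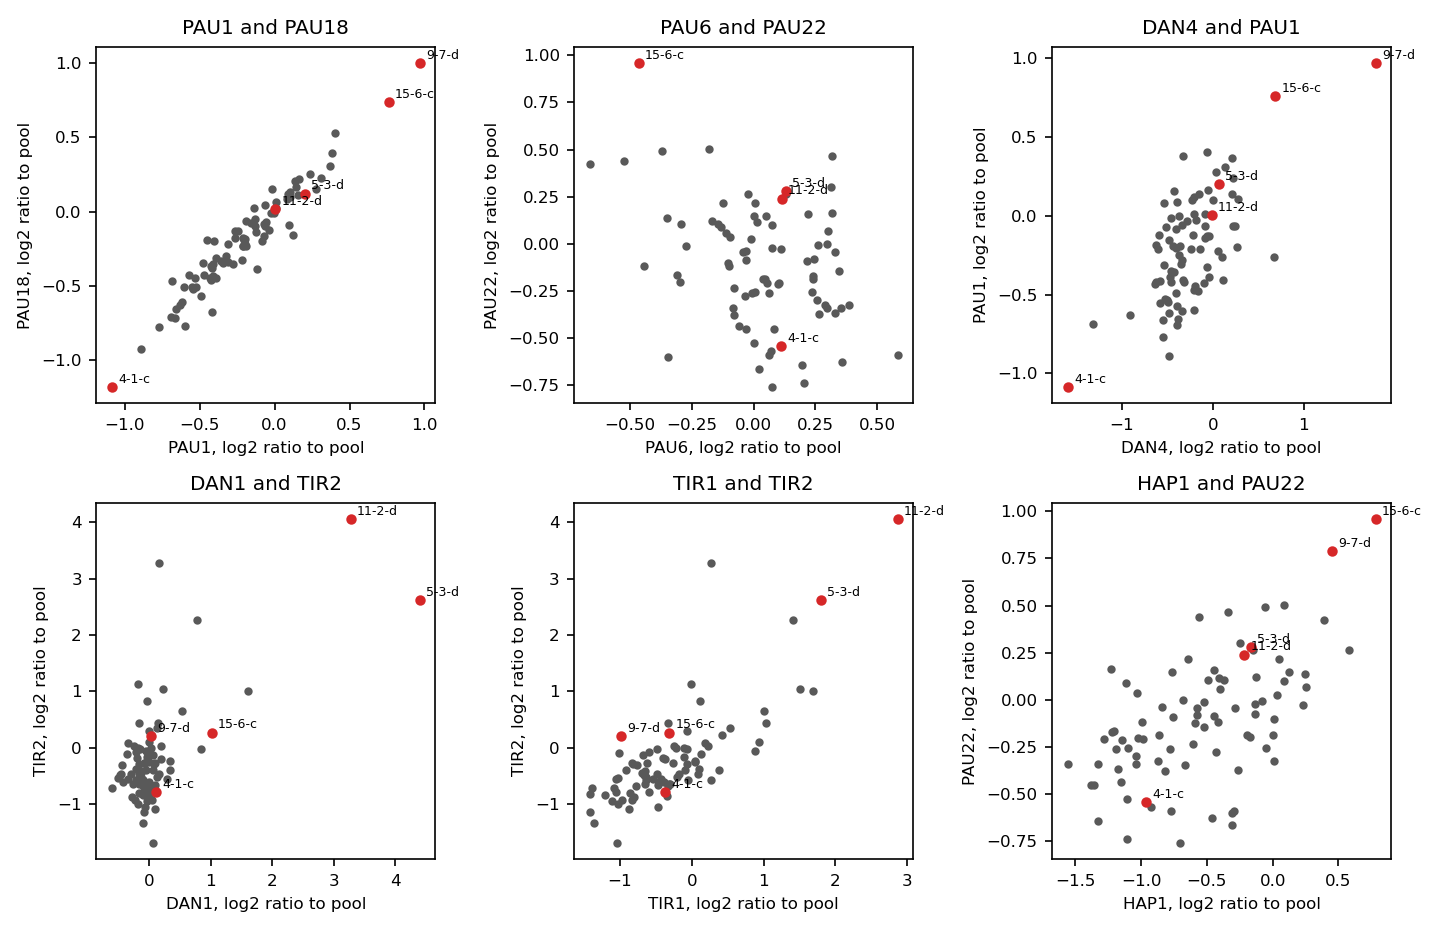
Log2 ratios to the BY4716 pool of 2 genes on the axes of each panel, 1 point per segregant, with 5 outlying segregants in red. PAU1 and PAU18 follow a line (r = 0.961), DAN1 and TIR2 rise together mainly through 5-3-d and 11-2-d (r = 0.662, 0.392 without the 2 most extreme), and PAU22 rises with HAP1.

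Genes related to these families were taken from 3 lists: 10 regulators, 12 hypoxic genes and 14 other wall genes. All 36 were measured, giving 1044 pairs with the 29 genes. At an adjusted permutation p under 0.05, 285 pairs were called, 217 positive and 68 negative, down to an absolute r of 0.265. An absolute r at least that large was found in 20.1% of the pairs of the 29 genes with all other genes. PAU genes are alike in sequence and most moved together. Counts of PAU genes called with a related gene are therefore not counts of separate observations.

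The signal of HAP1, the gene of the heme-dependent activator Hap1, went with the PAU genes: 19 of 23 were called positive, with a median r of 0.507. The highest were PAU11 (r = 0.627, rho = 0.620, 0.576 without the 2 most extreme segregants, adjusted permutation p = 0.000197) and PAU1 (r = 0.609). DAN4 was called too (r = 0.416) and DAN1 was not (r = 0.221). HAP1 itself stood at 0.22 and 0.07 in BY4716 and at -1.62 and -1.97 in RM11, a difference of -1.94 (SE 0.139, limma adjusted p = 7.89e-04), and ran from -1.56 to 0.78 in the segregants. Whether a higher HAP1 signal meant more activity of its product was not tested, and the HAP1 alleles of the strains were not compared. ECM22, a sterol-responsive paralog of UPC2, was called positive with 17 PAU genes and 3 TIR genes.

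UPC2 went with 3 TIR genes, with DAN1 and with 9 PAU genes. TIR1 was highest (r = 0.576, rho = 0.684), then TIR2 (r = 0.448), TIR4 (r = 0.439) and DAN1 (r = 0.348), while DAN4 was not called (r = -0.228). MOT3, a repressor of the DAN and TIR genes, ran against TIR1 (r = -0.565, rho = -0.614, -0.557 without the 2 most extreme segregants, adjusted permutation p = 0.000197), TIR2 (r = -0.50), DAN1 (r = -0.350), TIR3 (r = -0.335), PAU8 (r = -0.347) and PAU11 (r = -0.273). ROX1, another repressor of hypoxic genes, was called in 1 pair, with TIR1 (r = -0.315). Between the strains 6 of the 10 regulators could be tested, and HAP1 and MGA2 were called lower and SPT23 higher in RM11 (limma).

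Of the hypoxic genes, the sterol importer AUS1 was called positive with 22 of the 29 genes and negative with PAU6. HEM13, a heme synthesis gene that heme represses, went with TIR2 (r = 0.648, 0.512 without the 2 most extreme segregants) and TIR1 (r = 0.599). Other hypoxic genes ran the opposite way. CYC7, the second cytochrome c gene, was called negative with 17 of the 29, down to -0.509 with TIR1 and -0.479 with PAU15. ANB1, a translation factor gene, was also called negative with 17, including PAU15 (r = -0.461), and positive with PAU6 (r = 0.330), and the fatty acid desaturase gene OLE1 with 11. COX5B, a cytochrome oxidase subunit gene, was called positive with 15. In total 52 PAU pairs were called positive and 42 negative with the 12 genes. The parental test found 4 of 8 hypoxic genes higher and 3 lower in RM11 (limma), with CYC7 at 1.84 and ANB1 at 1.36 above BY4716 and COX5B at -0.92.

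The wall gene TIP1, related to the TIR genes, had the highest r of all 1044 pairs, 0.714 with TIR1 (rho = 0.746, 0.670 without the 2 most extreme segregants). It fell like TIR1 in RM11, by 2.24 on the log2 scale (SE 0.0767, limma adjusted p = 7.57e-05). The flocculin gene FLO1 was called positive with 18 of the 29 and negative with 1, the wall gene HSP150 positive with 15, and its relative PIR3 positive with 13 and negative with 1. The aerobic wall genes CWP1 and CWP2 were called with 3 and 2 of the 29, both of them positive with PAU7 and TIR3, and CWP1 negative with TIR4 (r = -0.270). Of the 11 wall genes tested between the strains 2 were higher and 3 lower in RM11 (limma).

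Each family was also set against all 5538 genes outside the 3 families, by the mean over its genes of values centred on the segregant median and divided by the segregant SD. The PAU mean was most like YIL175W (r = 0.761), YIL174W (r = 0.654), HAP1 (r = 0.650) and COS10 (r = 0.614). By their systematic names YIL175W and YIL174W lie beside PAU14 (YIL176C). They were not among the neighbouring protein-coding genes compared above. The DAN mean was most like GAC1 (r = 0.608), GPM2 (r = 0.607), DSF1 (r = 0.606) and MAN2 (r = 0.605). It averaged 2 genes that did not move together detectably (r = 0.110). Its highest values came mainly from DAN1 in 5-3-d and 11-2-d and from DAN4 in 9-7-d. The TIR mean was most like HEM13 (r = 0.583), TIP1 (r = 0.579), CRM1 (r = 0.579) and MAN2 (r = 0.552). The median r over all outside genes was between -0.0395 and -0.00640 in the 3 families. These genes were picked for their likeness, so the values describe them and carry no test.

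A few segregants stood apart, and mostly not the same ones for the PAU genes as for TIR genes. By the family mean, in SDs, segregants 15-6-c (2.14), 9-7-d (1.99) and 4-4-d (1.76) were highest for the PAU genes, and 4-1-c (-1.49), 1-4-d (-1.28) and 5-5-d (-1.26) were lowest. In 15-6-c the median PAU value was 0.68, with 0.72 and 0.64 on the orientations, and 20 of 23 PAU genes were above their segregant medians. It was the highest segregant in 10 PAU genes and in TIR4 (1.12), with DAN1 at 1.01. In 4-1-c the median PAU value was -0.55, and it was the lowest segregant in 6 PAU genes and in DAN4 (-1.60). Segregant 4-4-d had a median PAU value of 0.45 with 22 of 23 genes above their medians, but DAN1 at -0.46 and TIR4 at -0.83.

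Segregants 5-3-d and 11-2-d were both high for DAN1, TIR1 and TIR2. In 5-3-d DAN1 was at 4.40 (5.04 and 3.76 on the orientations), TIR1 at 1.80 and TIR2 at 2.62. In 11-2-d TIR2 was at 4.06 (4.39 and 3.72), TIR1 at 2.87 and DAN1 at 3.27. Both carried the rise on both arrays, and their median PAU values were modest, 0.31 and 0.17. DAN4 did not share it, at 0.07 in 5-3-d and -0.01 in 11-2-d. Its own highest value was 1.79 in 9-7-d, where TIR1 was at -0.99.

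Segregant 18-3-d was also high in all 3 genes, with DAN1 at 1.60, TIR1 at 1.68 and TIR2 at 1.01. In 15-2-d, whose TIR mean came after those of 11-2-d and 5-3-d (1.95 SDs), DAN1 was at 0.77, TIR1 at 1.41 and TIR2 at 2.26. In 9-2-d TIR2 was at 3.28, while DAN1 was at 0.15 and TIR1 at 0.26. The lowest TIR means were in 5-2-d (-1.19 SDs), 6-3-c (-1.08 SDs) and 5-5-d (-1.06 SDs), and 5-5-d was low for PAU genes as well. Several of these segregants also varied more than most over all genes. The SD over genes was above that of 97.7% of segregants in 15-6-c, 98.8% in 9-7-d, 96.5% in 4-1-c and 90.7% in 4-4-d. It was above 82.6% in 11-2-d and above 31.4% in 5-3-d. The part of that wider variation in their values was not tested.

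**Figure D5:**
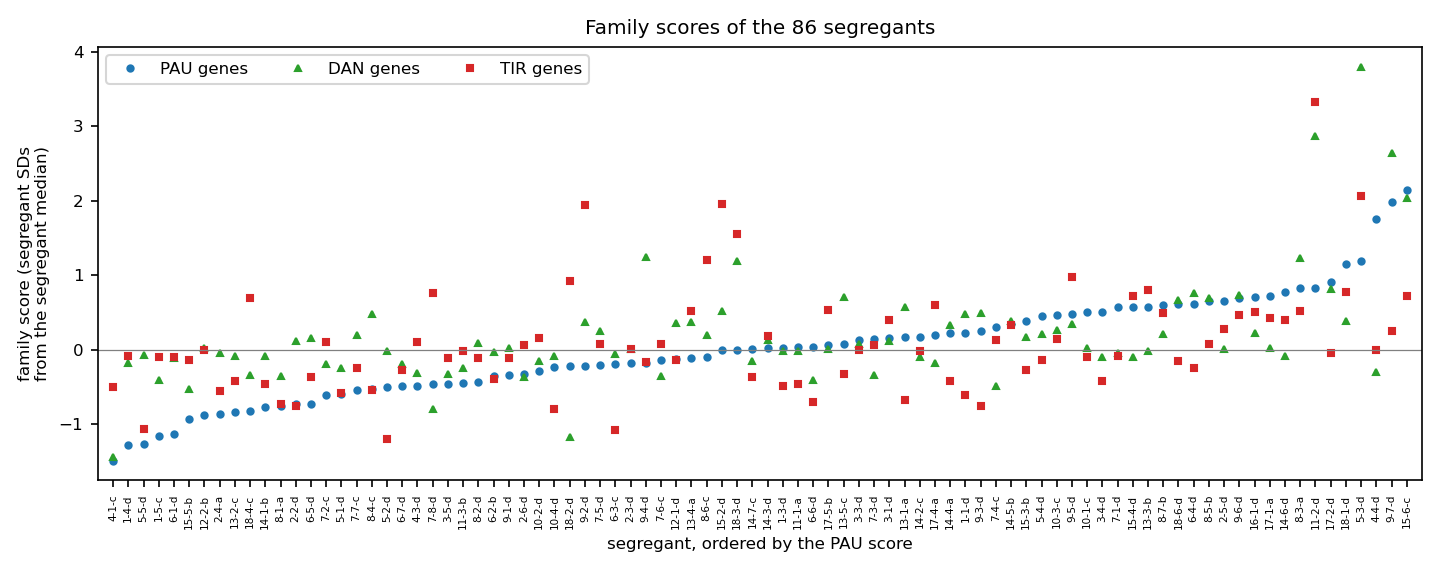
Mean of the PAU (blue circles), DAN (green triangles) and TIR (red squares) genes in each segregant, in segregant SDs from the segregant median, with segregants ordered by the PAU mean. The PAU mean runs from -1.49 in 4-1-c to 2.14 in 15-6-c, and the highest DAN and TIR values are in 5-3-d and 11-2-d.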

How the data were processed

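The deposited table held, for each probe and array, the log ratio of a culture to the BY4716 pool, already normalized by the authors. The labels state neither the log base nor the scale, so the authors' values were read as log2, with every array's mean at 0 and both dye orientations pointing the same way. Of 7085 probes, 5645 had 1 gene symbol and 1440 none. Probes of a gene were averaged, then the orientations of a culture. Scanner software, background correction and array batches are not given in the sources used here.

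Parents were compared with limma 3.58.1 (R 4.3.3) on culture means, with Benjamini-Hochberg adjustment at 0.05. The main test took genes whose 8 parental arrays all gave a value. Segregant variance was tested with a one-sided F test against the limma error variance. Two-component mixtures were fitted with mclust 6.1.1 and called at a BIC gain over 10, means over 4 component SDs apart and at least 20% of segregants in the smaller cluster. Correlations (numpy 2.4.6) used genes measured in at least 80% of segregants (69 of 86) and two-sided tests with 100000 permutations, whose smallest p is 1e-05. The steps were tested on simulated data. A segregant had 1 culture, and the number of parental cultures limits the precision.

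Every one of the 29 genes was named. Values per culture were given for genes measured in all 4 parental cultures, and the 3 highest pairs and the lowest pair of each class, 4 outside genes per family and 3 segregants at each end of a family mean were named. The genes and lists were chosen with earlier results of these data known. Alternatives were other centring and normalization, single dye orientations, left-out cultures, a replicate block, other filters, rank correlation and removal of the first principal component.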

Additional observations from a re-analysis of the deposited data

How the results depend on the processing

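The number of genes called between the strains was 869 (591 higher in RM11), and 750 with quantile normalization, 435 of them higher. It fell to 533 on the Cy3-titled arrays alone and ran from 199 to 1797 when 1 parental culture was left out, where the lone culture is assumed to vary like the other strain. Of the 29 genes, 2 were called, with 1 under quantile normalization, 0 on the Cy3-titled arrays, 4 of 18 on the Cy5-titled arrays, 0 to 6 with 1 culture left out, 6 with a value in every parental culture (6 with median centring and 4 with quantile normalization under that rule, both added after seeing the data) and 8 with 1 value per strain. Cultures of different strains share only a number; the correlation of their deviations was 0.189 over 3256 genes, and the replicate block gave 830 calls with PAU21 and PAU7 called as before. BY4716 against the pool gave 0 calls of 3256 (limma, 616 at an unadjusted p under 0.05). That count was 873 with quantile normalization, 13 on the Cy5-titled arrays, 3 with a value in every parental culture (3 with median centring and 652 with quantile normalization), 3 with 1 value per strain and 0 to 1396 with 1 culture left out. For the variance test, 1909 genes became 631 on the Cy3-titled arrays, 3403 on the Cy5-titled arrays, 5220 against the error between orientations, and 143 to 3730 with 1 culture left out. The 4 genes of the families became 2, 14 and 27, and 2 to 10. With means over 3 component SDs apart, 96 genes formed 2 clusters in place of 55, and still 0 of the 29. The median r of PAU pairs moved to 0.437 on the Cy5-titled arrays, 0.440 across orientations, 0.714 where both orientations lay within 1 log2 unit (136 pairs, added after seeing the data) and 0.610 without PAU6, PAU7 and PAU24 (likewise added). DAN1 with DAN4 turned to -0.0412 as a rank correlation and to -0.00194 without the first principal component. The median of DAN with TIR pairs was 0.366 on the Cy5-titled arrays and 0.390 with agreeing orientations. That of TIR pairs was 0.443 and 0.517 on the Cy3- and Cy5-titled arrays and 0.786 with agreeing orientations, where only 3, 3 and 1 pairs were left. The causes of the other moves were not tested. The 285 pairs with related genes stayed between 195 and 306 in every alternative run.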

Other observations

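In 6 segregants a whole chromosome stood above the pool, with a median over its genes of at least 0.3 on the log2 scale, and 9 values of the PAU and TIR genes lay on those chromosomes. This was looked for after the other values had been seen. All 9 were under the median of their chromosome. On chromosome II, whose medians in 13-2-c, 8-1-a, 10-1-c and 15-5-b were 0.81, 0.75, 0.66 and 0.64, PAU24 was at -0.16, -0.25, -0.11 and 0.24, beside a segregant median of -0.08. The repeatability of PAU24 between orientations was 0.0921. On chromosome XIII, PAU19 was at -0.08 in 9-4-d, beside a segregant median of -0.05. The chromosome median there was 0.75, and 3.20% of 438 genes lay lower. In 14-6-d, where chromosome IV had a median of 0.72 and chromosome IX of 0.63, PAU10 was at -0.03, PAU14 at 0.01 and TIR3 at -0.10. Their segregant medians were -0.13, -0.23 and 0.07, so PAU10 and PAU14 lay above their own medians and TIR3 below. The repeatability of TIR3 was 0.284. PAU15, also on chromosome IX, was at 0.56 there against a segregant median of 0.05, with 43% of the 207 genes of the chromosome lower. The segregants named above for high or low family means had no chromosome median beyond 0.15.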
